A study of Mus musculus with 3 samples.

Results

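Cathepsins are proteases, most of them lysosomal, and cystatins are proteins that block the cysteine cathepsins. The 10 genes described here are 8 cathepsin genes (Ctsa, Ctsb, Ctsc, Ctsd, Ctsl, Ctss, Ctsw and Ctsz) and 2 cystatin genes (Cst3 and Cstb). They were taken by gene symbol from the 55536 annotated genes of GENCODE M21, and each symbol matched 1 gene. They were also chosen by values measured here, since their TPM, counts and transcript shares in these libraries were known when the list was drawn up. The levels, the order of the genes and the transcript shares are therefore descriptions without a test. The only test made is of the libraries against each other.

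The RNA came from primary CD4+ alpha-beta T cells labelled effector memory, taken from an adult male C57BL/6J mouse aged 7 months with no treatment or mutation on the labels. Polyadenylated RNA was sheared acoustically and sequenced as 3 libraries, labelled technical replicates 1, 2 and 3 of 1 biological replicate. All 3 libraries form 1 group, so no contrast between conditions exists, and each SD below (n = 3 libraries) measures technical spread within 1 mouse. Gene counts summed to 16251564, 14878641 and 14152590 in libraries 1, 2 and 3. Levels are in TPM, a share of all transcripts after division of the reads by length, which can be compared between genes. All 7 listed T cell markers stood above 100 TPM, led by the receptor chain gene Trac at 3271 ± 341, the kinase gene Lck at 1232 ± 152 and the CD3 chain gene Cd3e at 679 ± 29.2 TPM. They were listed as markers of T cells as such, and the effector memory label was not tested.

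Most cathepsins are made as inactive precursors, tagged with mannose 6-phosphate, carried to the lysosome and activated there by removal of a propeptide. They fall into classes by the residue that cuts: cysteine proteases of the papain family (Ctsb, Ctsc, Ctsl, Ctss, Ctsw and Ctsz here), the aspartic protease Ctsd and the serine carboxypeptidase Ctsa. In lymphocytes they are known for protein turnover, for activating granule proteases and for a part in cell death when they leak from the lysosome. Cystatins bind the active site of the papain-like enzymes and have no action on Ctsd or Ctsa.

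Transcripts of Ctsw, Ctsd and Ctsb were the most abundant of the 10 genes, and that of Ctsl the least. All 10 genes stood at 10 TPM or more, as did 34.2% of the 22028 protein-coding genes, and 4 of 10 stood at 100 TPM or more, as did 7.82%. Their median level was 79.4 TPM, beside 0.700 TPM over all protein-coding genes and 25.5 TPM over those at 1 TPM or more. In bulk RNA a lower level from fewer expressing cells and one from less RNA per cell cannot be told apart. The 8 cathepsin genes summed to 1306, 1341 and 1258 TPM in libraries 1, 2 and 3, and the 2 cystatin genes to 134, 132 and 143 TPM.

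**Figure D1:**
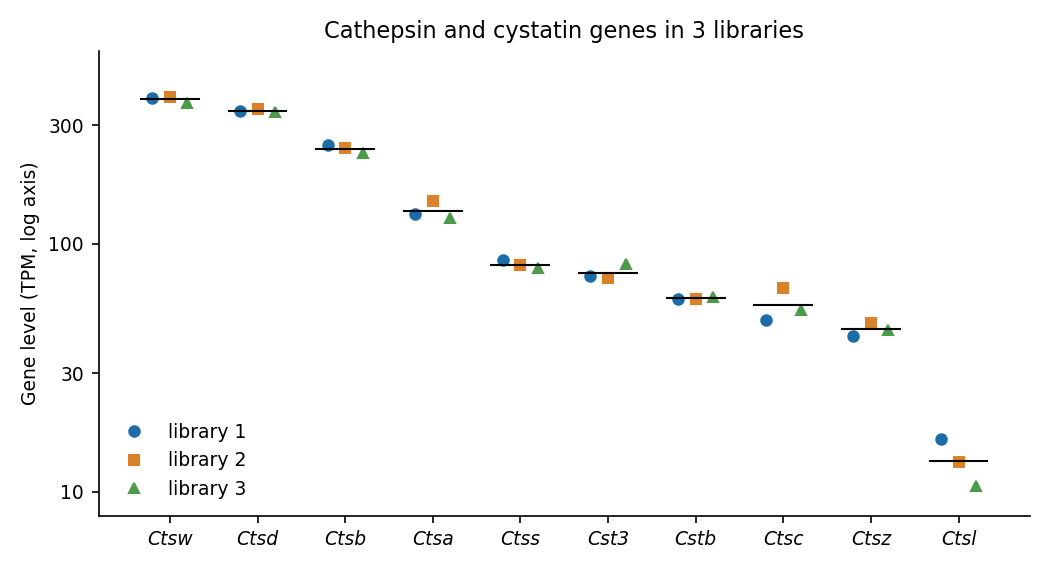
Level of each of the 10 genes in TPM (log axis), one point per library, with a line at the mean of 3 libraries, genes ordered by mean. Ctsw and Ctsd lie near 383 and 344 TPM, Ctsl near 13.4 TPM, and the points of Ctss and Cst3 and of Cstb and Ctsc overlap.

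Ctsw encodes cathepsin W, a papain-family protease known from natural killer and cytotoxic T cells, where it is held in the endoplasmic reticulum. Ctsw (ENSMUSG00000024910.5, chr19:5465043-5468507 on mm10, minus strand) measured 388, 390.1 and 370.7 TPM (libraries 1, 2 and 3), on average 383 ± 10.6 TPM. This level was above that of 98.3% of protein-coding genes, and library 3 was the lowest. Markers of CD8 T and natural killer cells were mixed in these libraries. Klrb1c stood at 18.0 ± 4.19 TPM, Cd8b1 at 4.16 ± 0.887 and Eomes at 3.15 ± 0.690 TPM, while Cd8a had 3 counts and Ncr1 had 4 counts over all libraries. The summed level of that 5-gene list was 21.1 to 29.1 TPM per library, and its part in the level of Ctsw was not tested.

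Of 6 annotated Ctsw transcripts, the coding transcript Ctsw-201 led in every library with 244, 226 and 232 TPM, a mean of 61.0% ± 2.73 of the gene. Next came Ctsw-203 with 65.3, 68.4 and 53.1 TPM (16.2% ± 1.68) and Ctsw-202 with 48.1, 57.1 and 39.7 TPM (12.6% ± 1.97). Both are annotated as retained-intron transcripts, which keep an intron and carry no annotated coding sequence. As listed, a pair of shorter retained-intron transcripts varied most. Ctsw-206 had 27.8, 0 and 32.4 TPM and Ctsw-204 had 0, 34.3 and 8.03 TPM in libraries 1, 2 and 3. Each was thus listed at 0 in a library where the other was not. The split of reads between transcripts was uncertain here. The deposited posterior SD was 27.1% and 34.8% of the count of Ctsw-206 in libraries 1 and 3. For Ctsw-204 it was 20.6% and 137% in libraries 2 and 3. The part of that split in the pattern was not tested. The stretch below is shown because it separates Ctsw-202 and Ctsw-203 from Ctsw-201. It lies at chr19:5466297-5466403 on GRCm38, minus strand, from GENCODE M21, and the 77 capitals are an intron of Ctsw-201.
Ctsw-203: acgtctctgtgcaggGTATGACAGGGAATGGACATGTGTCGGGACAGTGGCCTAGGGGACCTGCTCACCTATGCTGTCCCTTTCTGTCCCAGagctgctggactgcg

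Ctsd encodes the main aspartic endopeptidase of the lysosome, which cystatins do not block. Ctsd (ENSMUSG00000007891.16, chr7:142375911-142388038, minus strand) measured 344, 349 and 340.2 TPM (libraries 1, 2 and 3), on average 344 ± 4.56 TPM. Ctsw was higher than Ctsd in 3 of 3 libraries, by a ratio of 1.11 ± 0.0200. The 2 coding transcripts shared the gene: Ctsd-201 had 223.4, 206.6 and 207.4 TPM (61.7% ± 2.99) and Ctsd-202 had 120.4, 142 and 132 TPM (38.2% ± 2.91). Ctsd-202 has 18 coding bases more, 1230 against 1212, at the end of 1 exon. These are the capitals in the stretch below, chr7:142377333-142377380, minus strand.
Ctsd-202: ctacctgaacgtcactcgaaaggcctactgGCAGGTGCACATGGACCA

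The split between the 2 Ctsd transcripts carries a deposited posterior SD of 7.53% to 8.47% of the count of Ctsd-202, whereas that of the whole gene was at most 0.709%. Over whole gene spans, introns included, Ctsd also shares 6757 bases on the same strand with the annotated gene Gm49369. That gene was given 18.2 ± 7.85 TPM, so reads of Ctsd and Gm49369 cannot be fully told apart. Ctss shares 557 bases on the same strand with the pseudogene Hmgb1-ps5 (4.08 TPM). The strand setting of the counts is not known, so genes on the opposite strand matter too. Ctsb overlaps Fdft1 (16.1 TPM) by 774 bases, and Ctsa overlaps Pltp (4.76 TPM) by 1515 bases. Ctsc overlaps Gm26522 (1.19 TPM) by 4743 bases, and Ctsl overlaps Gm47123 (0.33 TPM) by 1971 bases. Cst3 and Cstb overlap no other annotated gene.

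Ctsb encodes cathepsin B, a cysteine protease that acts both inside proteins and as a carboxydipeptidase. Ctsb (ENSMUSG00000021939.8, chr14:63122462-63145923, plus strand) measured 249, 243 and 231 TPM (libraries 1, 2 and 3), on average 241 ± 9.12 TPM. By TPM it was the only one of the 10 genes led by a noncoding transcript. The retained-intron transcript Ctsb-202 had 172, 158 and 155 TPM, or 67.1% ± 2.00 of the gene, and the coding Ctsb-201 had 76.7, 84.4 and 75.5 TPM, or 32.7% ± 1.93. By reads the order was the other way, since Ctsb-202 was given 24.8% ± 1.66 of the gene's counts and Ctsb-201 was given 75.1% ± 1.62.

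The 2 Ctsb transcripts differ in length, 801 bases in Ctsb-202 and 4743 in Ctsb-201, and TPM divides by it. Of the 801 bases, 710 also lie in exons of Ctsb-201, and 91 do not. Ctsb-201 ends in an exon of 3692 bases that Ctsb-202 lacks. The part of these differences in the TPM shares was not tested. The first 120 bases of Ctsb-202 are shown because they hold nearly all of what is its own (chr14:63135518-63135637 on GRCm38, plus strand, GENCODE M21). The 90 capitals are intron in Ctsb-201, and the lower case is an exon of both.
Ctsb-202: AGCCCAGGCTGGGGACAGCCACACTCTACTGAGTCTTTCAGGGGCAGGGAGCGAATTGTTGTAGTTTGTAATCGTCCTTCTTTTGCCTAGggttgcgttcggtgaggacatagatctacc

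**Figure D2:**
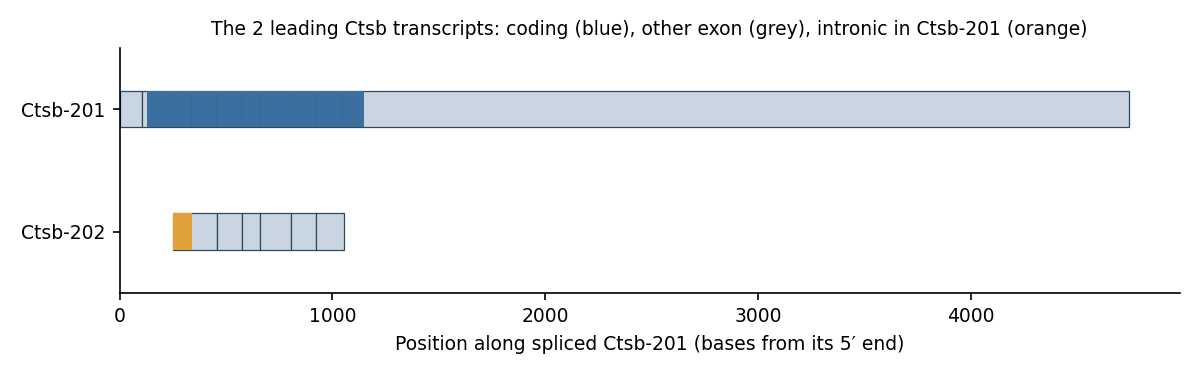
Exons of Ctsb-201 and Ctsb-202 along the spliced bases of Ctsb-201 from its 5′ end, with coding bases in blue, other exon bases in grey and bases that are intron in Ctsb-201 in orange. Ctsb-202 shares 710 bases with Ctsb-201 and lacks its last exon of 3692 bases; the orange bases have no place in Ctsb-201 and are drawn left of the exon they run into.

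Ctsc encodes dipeptidyl peptidase I, which activates granzymes by cutting off their N-terminal dipeptide. Ctsc (ENSMUSG00000030560.17, chr7:88278085-88310888, plus strand) measured 49.1, 66.5 and 54.2 TPM (libraries 1, 2 and 3), on average 56.6 ± 8.93 TPM. Library 2 was the highest. Ctsc-201 held 79.3% ± 4.84 of the gene and Ctsc-203 held 15.8% ± 1.28, both annotated as coding. Ctsc-203 has 411 coding bases, beside 1386 in Ctsc-201, and the 2 transcripts share 387 bases. Among the 7 granule genes listed with Ctsc, 6 reached 1 TPM, led by the proteoglycan gene Srgn at 2097 ± 34.6, the perforin gene Prf1 at 70.0 ± 1.69 and the granzyme gene Gzmb at 54.0 ± 2.04 TPM. The ratio of Ctsc to Gzmb was 0.941, 1.24 and 0.965 in libraries 1, 2 and 3.

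Ctss and Ctsl encode cysteine endopeptidases best known for cutting the invariant chain of MHC class II, Ctss in B cells, macrophages and dendritic cells and Ctsl, in mice, in the thymic cortex. Ctss (ENSMUSG00000038642.10, chr3:95526786-95556403, plus strand) measured 85.6, 81.8 and 79.9 TPM (libraries 1, 2 and 3), on average 82.4 ± 2.94 TPM. Its 2 coding transcripts differ by 3 bases: Ctss-202 had 85.6, 81.8 and 73.2 TPM, and Ctss-201 had 0, 0 and 6.64 TPM, the last with a posterior SD of 91.5% of its count. Ctsl (ENSMUSG00000021477.9, chr13:64359337-64370890, minus strand) measured 16.3, 13.2 and 10.6 TPM, on average 13.4 ± 2.87 TPM. It was the lowest of the 10 in every library, and library 1 was the highest. Ctsl-201 held 44.9% ± 3.91 of it, the short coding Ctsl-206 29.1% ± 8.91, and Ctsl-207, annotated as a target of nonsense-mediated decay, 15.1% ± 7.91. The posterior SD was 27.8% to 53.9% of the count of Ctsl-206 and 36.8% to 82.4% of that of Ctsl-207.

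Ctss and Cst3 also serve as markers of myeloid cells, and of those cells' own markers all but Cd68, Zbtb46 and Xcr1 were below 1 TPM. Of 10 monocyte and macrophage markers, 9 were below 1 TPM. Cd68 stood at 3.26 ± 1.17, C1qa at 0.487 ± 0.301, Cd14 at 0.363 ± 0.171 and Lyz2 at 0.317 ± 0.0451 TPM, and Fcgr1 had 0 counts. That list summed to 4.12 to 7.01 TPM per library. The 7 dendritic cell markers summed to 25.8 to 30.4 TPM, of which Zbtb46 made 26.0 ± 2.15 and Xcr1 1.77 ± 0.450 TPM, with Itgax at 0.313 ± 0.244 TPM and Clec9a at 0 counts. The 4 neutrophil markers summed to 0.170 to 2.04 TPM and the 5 B cell markers to 0.860 to 1.68 TPM, with every member of both below 1 TPM. Of 8 class II presentation genes, Ifi30 stood at 15.5 ± 0.486, H2-DMa at 10.1 ± 1.98 and Cd74, which encodes the invariant chain itself, at 5.63 ± 1.09 TPM, and the other 5 were below 1 TPM. The part of such cells in the levels of Ctss and Cst3 was not tested.

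Ctsa encodes protective protein/cathepsin A, which also holds the sialidase Neu1 and the beta-galactosidase Glb1 in a stable complex. Ctsa (ENSMUSG00000017760.16, chr2:164832873-164841032, plus strand) measured 132, 149 and 127 TPM (libraries 1, 2 and 3), on average 136 ± 11.6 TPM. As in Ctsc, the highest value was in library 2. The coding Ctsa-202 held 74.9% ± 2.55 of the gene. The next of 16 annotated transcripts, the retained-intron Ctsa-206, had 6.49, 13.7 and 14.4 TPM (8.48% ± 3.26), with a posterior SD of 20.3% to 40.2% of its count. In the list of partners of Ctsa and Ctsd, the saposin precursor gene Psap stood at 195 ± 23.7, Neu1 at 53.8 ± 1.75 and Glb1 at 15.4 ± 0.512 TPM.

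Ctsz encodes cathepsin Z, also called X, a cysteine carboxypeptidase. Ctsz (ENSMUSG00000016256.10, chr2:174427493-174439039, minus strand) measured 42.4, 48.1 and 44.9 TPM (libraries 1, 2 and 3), on average 45.1 ± 2.82 TPM, all from its single annotated transcript.

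Both cystatin genes stood below the larger cathepsins. Cst3 encodes cystatin C, a secreted inhibitor, and Cstb encodes cystatin B, an inhibitor of the cytosol and nucleus. Cst3 (ENSMUSG00000027447.6, chr2:148871722-148875692, minus strand) measured 73.8, 72.4 and 82.7 TPM (libraries 1, 2 and 3), on average 76.3 ± 5.56 TPM and 99.4% ± 0.489 of it in the leading transcript, which is coding. Cstb (ENSMUSG00000005054.7, chr10:78425669-78427622, plus strand) measured 59.8, 60.0 and 60.8 TPM, on average 60.2 ± 0.496 TPM from its single transcript. Cstb had the narrowest spread of the 10 genes, a coefficient of variation of 0.824%, and Ctsl the widest, 21.5%. With 330, 294 and 296 counts in libraries 1, 2 and 3, the spread of Cstb was below counting error. It does not show a steadier gene.

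In the order of levels, 7 of 9 pairs of neighbours had library ranges that did not overlap. The exceptions were Ctss and Cst3, and Cstb and Ctsc, where the gene with the higher mean was higher in 2 of 3 libraries. The widest step was between Ctsz and Ctsl, a ratio of 3.38. When only protein-coding transcripts were counted, an alternative added after the data were seen, the order at the top changed. Ctsd then led with 344 ± 4.71 TPM, ahead of Ctsw with 238 ± 8.27 and Ctsa with 105 ± 11.9 TPM, and Ctsb stood at 78.8 ± 4.81 TPM, below Ctss. By TPM the same transcript led in every library for 10 of 10 genes, and it was protein-coding for 9 of them.

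Retained-intron transcripts took 67.3% ± 1.93 of the TPM of Ctsb, 37.8% ± 2.77 of Ctsw and 17.6% ± 4.67 of Ctsa. Of counts they took 24.9%, 38.5% and 6.45%. For comparison, over the 7544 protein-coding genes at 10 TPM or more the median share of TPM was 4.97%, and 34.1% of them had a share of 0. A share above that of Ctsb was found in 2.16% of these genes, above that of Ctsw in 10.1% and above that of Ctsa in 27.2%. The highest mean retained-intron share among the other 7 of the 10 genes was that of Ctsc, 1.80% ± 0.530.

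**Figure D3:**
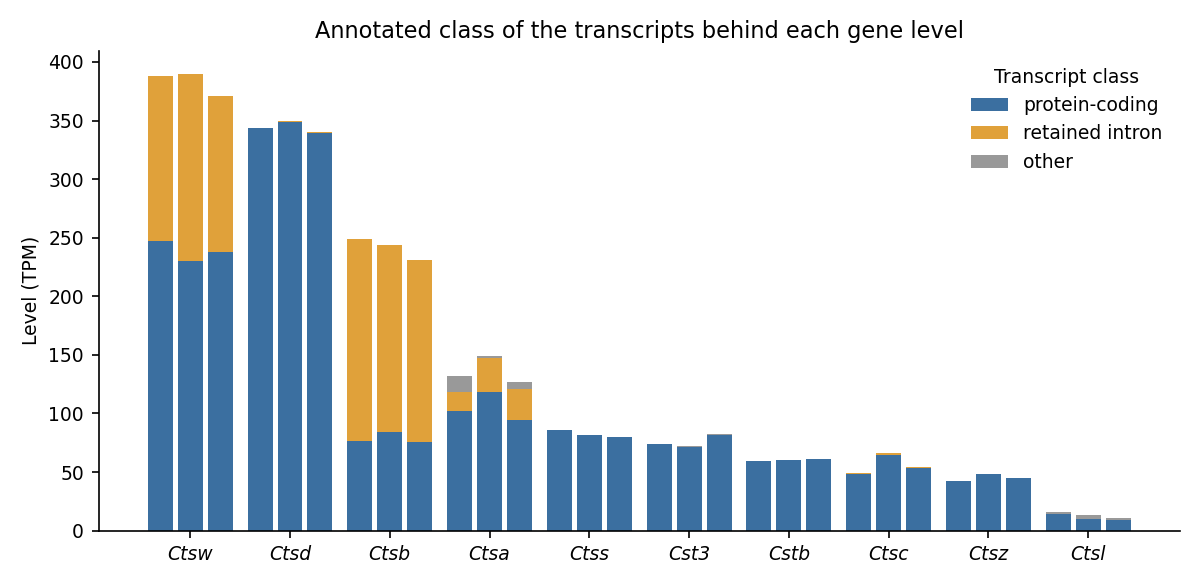
Level of each gene in TPM, split by annotated transcript class, with 1 bar each for libraries 1, 2 and 3 from left to right. As a mean over the libraries, retained-intron transcripts fill 67.3% of Ctsb, 37.8% of Ctsw and 17.6% of Ctsa, and at most 1.80% of each of the other genes.

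Promoter sequence was available for part of the set: 7 of 10 genes matched RefSeq windows on GRCm38.p6, with 2 windows for Ctsa. The 250 bases before each RefSeq start were searched on both strands for 3 motifs, chosen after these sequences had been read. CACGTG is the core of the E-box bound by many basic helix-loop-helix factors. TCACGTGA, which contains CACGTG, is the form found in lysosomal genes and bound by Tfeb and its relatives, and GAAANNGAAA is the form bound by interferon regulatory factors. TCACGTGA occurred in the Ctsd window and in the second Ctsa window, and in 0.785% of all 32851 windows. CACGTG alone occurred also in the Ctsl window, so in 3 of 8 windows, beside 6.02% of all windows. GAAANNGAAA occurred in the Ctss window and in 2.98% of all windows. These are matches of letters, and no binding was measured.

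The sites are shown with 10 bases on either side and the motif in capitals. In Ctsd the motif begins 99 bases before the RefSeq start (chr7:142387909-142387936, minus strand), inside the first exon annotated for Ctsd-202. In Ctsa it begins 13 bases before the second start (chr2:164833750-164833777, plus strand), inside annotated exons of Ctsa transcripts other than Ctsa-202. Transcripts that begin within 100 bases of the first Ctsa start held 78.2% ± 2.06 of the gene's TPM, and those within 100 bases of the second held 6.11% ± 5.19.
Ctsd: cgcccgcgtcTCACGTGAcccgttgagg
Ctsa: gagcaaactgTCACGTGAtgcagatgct

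The Ctss window (chr3:95526536-95526785, plus strand) is given whole because it ends at the start of the leading transcript Ctss-202, and its motif begins 21 bases before that start.
Ctss: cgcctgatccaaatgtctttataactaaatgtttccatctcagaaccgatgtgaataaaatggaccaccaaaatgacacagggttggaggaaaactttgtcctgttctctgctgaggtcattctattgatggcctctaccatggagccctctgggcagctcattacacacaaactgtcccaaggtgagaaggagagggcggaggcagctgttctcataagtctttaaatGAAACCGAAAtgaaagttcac

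Of the factors that bind TCACGTGA, Tfe3 stood at 67.8 ± 3.98 TPM, Tfeb at 20.6 ± 3.41 TPM, with 19.5, 24.4 and 17.9 TPM in libraries 1, 2 and 3, and Mitf at 0.963 ± 0.659 TPM. These 3 were named after their values were seen.

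For every gene, a chi-square test asked whether the rounded estimated counts of the 3 libraries differed by more than counting noise, with Benjamini-Hochberg adjustment over all 13949 genes with 30 or more counts. At an adjusted p below 0.05 it called 5 of the 10 genes, and 57.2% of all genes tested, so the share among the 10 was near the background. Ctsc had 76.5, 101 and 78.0 CPM (counts scaled to library size) in libraries 1, 2 and 3 after scaling by edgeR's TMM factors, a highest over lowest ratio of 1.33 (chi-square test, adjusted p = 2.39e-14). Ctsa had 166, 194 and 157 on the same scale, a ratio of 1.24 (chi-square test, adjusted p = 2.91e-13). In both genes library 2 was high. Without library 2 neither passed, with chi-square adjusted p = 0.777 for Ctsc and 0.132 for Ctsa. Over all genes tested the share called was 27.5% without library 2, 43.8% without library 1 and 42.3% without library 3.

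Ctsl, Ctsw and Ctsb made up the rest of the calls. Ctsl had 12.6, 10.1 and 7.58 scaled CPM, a ratio of 1.67 (chi-square test, adjusted p = 0.000265), and Ctsw had 291, 289 and 265, a ratio of 1.10 (chi-square test, adjusted p = 8.63e-05). Library 3 was the low one in both, and without it neither passed (chi-square adjusted p = 0.0847 for Ctsl and 0.817 for Ctsw). Ctsb had 300.3, 314 and 286, a ratio of 1.10 (chi-square test, adjusted p = 0.000227), and it did not pass without library 2 (chi-square adjusted p = 0.0649) or without library 3 (chi-square adjusted p = 0.0632). Ctsd, Ctss, Ctsz, Cst3 and Cstb did not pass, with chi-square adjusted p between 0.115 for Cst3 and 0.996 for Cstb.

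The median chi-square over the genes tested was 6.45 times what counting alone gives. After division by that inflation, 4.45% of all genes passed and 0 of the 10 did. Before adjustment the same corrected test gave a p under 0.05 for 2 of the 10, the smallest being 0.00490 for Ctsc (chi-square test). The share of all genes under that limit is not given here, so this count is not read as a result about the 10 genes. The inflation used as divisor depends on which genes enter. With all 36258 genes of 1 count or more it was 2.93, and 2 of the 10 (Ctsa and Ctsc) and 5.09% of all genes passed. With total counts as library sizes 3.74% of all genes passed, and among genes with at least 100 counts 4.78% did, with 0 of the 10 in each. The median highest over lowest ratio was 1.11 for the 10 genes, 1.27 for all genes tested and 1.19 for the 9083 genes with 300 or more counts. All of these values concern libraries of 1 mouse, and PCR copies are not independent molecules, so the test covers counting error only.

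**Figure D4:**
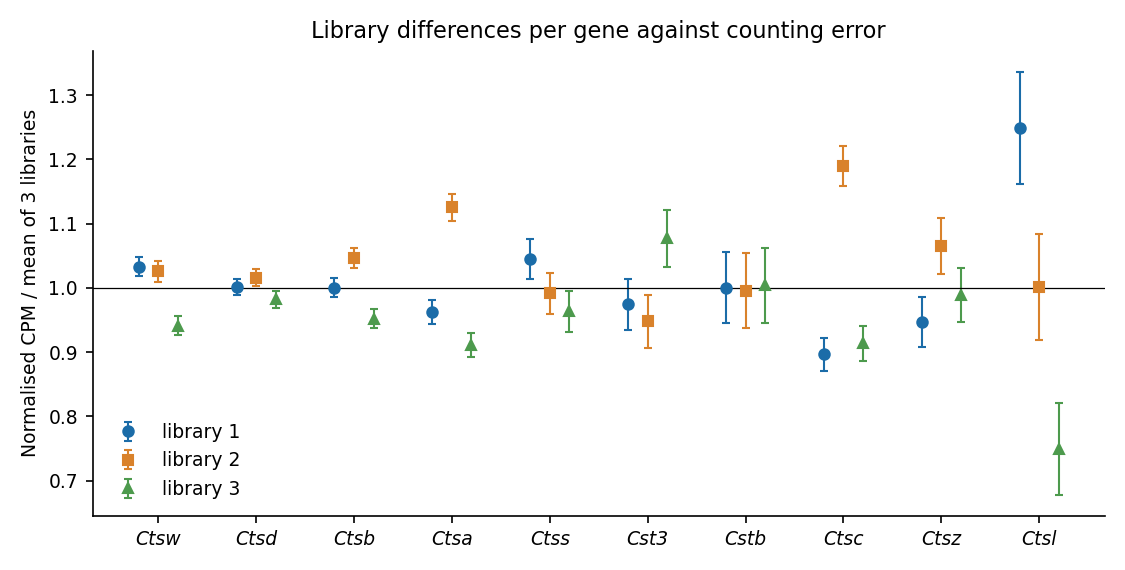
TMM-scaled CPM of each of the 10 genes in libraries 1, 2 and 3, divided by the gene's mean over the 3 libraries, with bars for counting error (1 SD, from the square root of the count). Ctsc and Ctsa peak in library 2, Ctsl is high in library 1 and low in library 3 (ratio 1.67), and the 3 points of Cstb lie within a ratio of 1.01.

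The rest of the cathepsin family was mostly below 1 TPM. For scale, 52.1% of all protein-coding genes lay below 0.963 TPM, the level of Mitf. Of 15 other cathepsin genes, 3 reached 1 TPM: Ctso, a papain-family member, at 30.3 ± 2.51, the aspartic protease gene Ctse at 15.2 ± 0.633 and Ctsf at 2.72 ± 1.11 TPM. Ctso was above Ctsl in 3 of 3 libraries. Of the others 5, among them the osteoclast protease gene Ctsk, had 0 counts, which allows up to 3 counts or 0.185 to 0.212 CPM in a library. The 8 cathepsins described above made 96.4% ± 0.140 of the summed TPM of all 23, Ctsw and Ctsd together 53.9% ± 0.744, and with Ctsb 71.7% ± 1.03.

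Among the cystatins the most abundant was one outside the 10 genes. Cst7 encodes cystatin F, an inhibitor made by immune cells, carried into their lysosomes and able to block Ctsc. It measured 125, 123 and 128 TPM in libraries 1, 2 and 3, above Cst3 and Cstb in each, and held 47.7% ± 0.644 of the summed TPM of 20 matched cystatin-family genes. The other 17 matched genes were below 1 TPM, led by Fetub at 0.360 ± 0.335 and Cst6 at 0.260 ± 0.159 TPM, and 6 had 0 counts. The symbols Csta2 and Csta3 were not matched. Ctsc stood at 0.392, 0.539 and 0.422 times Cst7 in libraries 1, 2 and 3. The summed TPM of all cathepsins was 5.20, 5.42 and 4.76 times that of all cystatins. The cathepsin sum counts Ctsd and Ctsa, on which cystatins have no action, and also the retained-intron transcripts. The 6 cysteine cathepsins among the 10 genes summed to 822 ± 27.0 TPM, beside 264 ± 8.76 TPM for all cystatins. That sum still holds retained-intron transcripts, on average 162 TPM in Ctsb and 145 TPM in Ctsw, and leaves out Ctso and Ctsf.

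**Figure D5:**
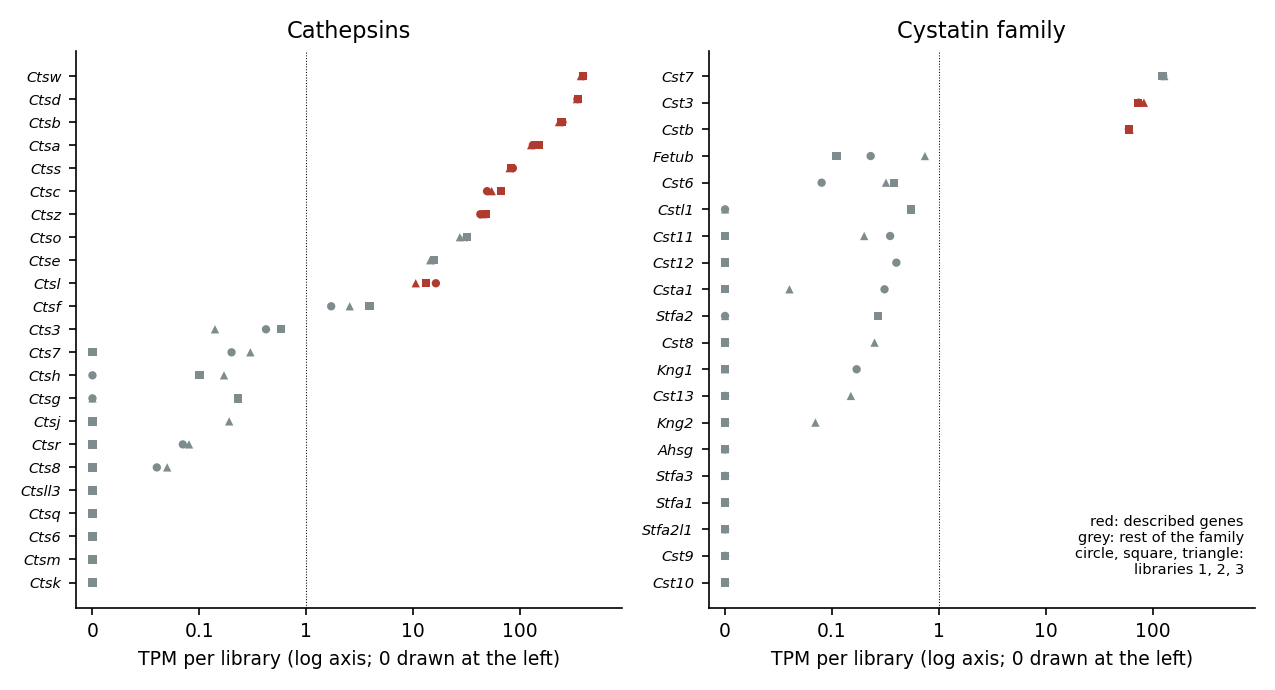
Level in TPM (log axis, with 0 drawn at the left) of 23 cathepsin genes and 20 cystatin-family genes, one marker per library, with the 10 described genes in red. Apart from Ctso, Ctse, Ctsf and Cst7, every grey gene has a mean below 1 TPM.

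Inhibitors of other families were mostly above 10 TPM. Of 9 listed, 8 reached 1 TPM and 7 reached 10 TPM. Among all protein-coding genes 34.2% reached 10 TPM, and 52.1% lay below 0.963 TPM, the level of Mitf. Ctla2a, which resembles the propeptide of Ctsl-like enzymes and blocks them, measured 198, 208 and 189 TPM, or 12.1, 15.8 and 17.9 times Ctsl in libraries 1, 2 and 3. Serpinb9 stood at 248 ± 6.15 TPM, although its known target is granzyme B rather than a cathepsin, and the serpin gene Serpinb6b at 96.5 ± 3.38 TPM. The counts above are thus not of cathepsin inhibitors alone, and no inhibition was measured. Most listed genes of the lysosome around the cathepsins also reached 1 TPM.

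In the sorting list, 11 of 12 genes reached 1 TPM, led by the mannose 6-phosphate receptor gene M6pr at 185 ± 10.1 TPM and by Gnptg and Gnptab, subunits of the enzyme that makes the tag, at 136 ± 8.10 and 74.0 ± 11.2 TPM. Among lysosomal membrane genes and regulators, 11 of 13 did, with Laptm5 at 1579 ± 44.0, Lamp1 at 178 ± 7.85 and the proton pump subunit gene Atp6ap1 at 123 ± 13.8 TPM. All 13 lysosomal glycosidase and lipase genes reached 10 TPM, among them the alpha-mannosidase gene Man2b1 at 75.3 ± 5.84 TPM. Of 6 matched lysosomal proteases outside the cathepsins, 5 reached 1 TPM, with Tpp1 at 55.7 ± 3.28, Scpep1 at 29.0 ± 0.456 and Prcp at 18.7 ± 0.745 TPM.

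The second gene table of each library held fewer reads for all 10 genes, and by unequal amounts. It was smaller as a whole, with 5110680, 4812984 and 4579836 counts in libraries 1, 2 and 3, beside 16251564, 14878641 and 14152590. Its counts were 29.7% of the estimated count for Ctsb, 30.1% for Ctsd and 42.9% for Ctsw, up to 75.0% for Ctsl. As mean CPM within each table, Ctsd stood at 385 in the second beside 409 in the first, and Ctsb at 278 beside 300. The rest of the 10 genes had a higher mean CPM in the second table.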

How the data were processed

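The members and gene lists were chosen with earlier results of these data known. Per the file headers, the gene and transcript tables that the authors deposited hold expected counts (estimates that share ambiguous reads among genes), TPM, FPKM, posterior mean TPM, a posterior SD of each count and bounds on TPM. Per the labels the assembly is mm10, and the gene IDs match GENCODE M21. Another gene table deposited for each library gives counts in whole numbers (totals 5110680, 4812984 and 4579836), with 22195 of 22457 rows matched. No source used here gives the aligner, quantifier or strand setting, so reads in bases that a gene shares with another, on either strand, cannot be fully told apart.

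Rows naming no gene took 0.188% to 0.579% of counts and were left out. Expected counts were rounded and tested per gene for homogeneity over the libraries (chi-square, TMM library sizes from edgeR 4.0.16, at least 30 counts, Benjamini-Hochberg, 0.05). The method was tried on simulated data that held counting noise and set changes only. Those data lack the extra spread of these libraries, so they do not show how the test behaves under it. With 1 group, no quasi-likelihood test could be fitted. Alternatives were total counts, DESeq2 1.42.0 size factors, other filters on low counts, the second table, division by the median inflation, genes with a small posterior SD, other units and limits, and leaving out each library. Named besides the 10 genes are the 3 highest of each list, markers of another cell type at 10 TPM or more, and each gene's 2 leading transcripts with any at 10% or more. Some genes that this rule covers are not reported here. Others (Lyz2, Fcgr1, Clec9a, Cd8a, Ncr1, Ctsk, Tfe3, Tfeb, Mitf, the overlapping genes and the Ctsw-204 and Ctsw-206 transcripts) were chosen after their values were seen. Of 146 list symbols, 143 matched. Scripts ran in R 4.3.3 and Python 3.11.15 (pandas 2.3.3, numpy 2.4.6, matplotlib 3.10.9, scipy 1.17.1).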

Additional observations from a re-analysis of the deposited data

How the results depend on the processing

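No paired analysis was possible because all libraries belong to 1 group. The library test called 7973 genes, or 57.2% of those tested. It called 2801 (27.3%) on the second table and 621 (4.45%) after division by the median inflation. When a library was left out it called 3546 to 5516 (27.5% to 43.8%), fewest without library 2 and most without library 1. Beside those shares, it called 5 of the 10 genes. Of the 10 it called 2 on the second table, 0 after that division and 2 to 5 when a library was left out. The division by the median inflation was repeated with other settings chosen after seeing the data. It called 621 genes (4.45%) with DESeq2 size factors, 521 (3.74%) with total counts and 522 (4.78%) with at least 100 counts. With no filter beyond 1 count it called 1844 (5.09%). Of the 10 genes it called 0, 0, 0 and 2, in the same order of settings. The divisor was 6.01 to 7.42 in the first 3 and 2.93 in the last. Ctsb, Ctsl and Ctsw did not pass on the second table (chi-square adjusted p = 0.984, 0.0817 and 0.625). With total counts in place of TMM factors Ctsb did not pass (chi-square adjusted p = 0.149) and Cst3 did (chi-square adjusted p = 0.0201). At a limit of 50 TPM in place of 100, 8 genes passed in place of 4, and 3 to 6 passed with the other units and limits tried. Of 40 mean levels recomputed, 8 moved by more than the spread, all of them lower as posterior mean TPM; of 40 leading transcript shares, 3 moved, all as shares of counts: 24.8% for Ctsb, 89.3% for Ctsa and 69.9% for Ctsl. Depth limits Ctsl most, which had 461 counts in all.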
